A study of Mus musculus with 12 samples.

Results

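The 39 genes described here belong to the ATF4 program of amino acid supply and tRNA charging: the transcription factor Atf4 with 7 other regulators, 7 enzymes of serine, glycine and one-carbon metabolism, 7 enzymes of asparagine, proline and cysteine synthesis and transamination, 5 amino acid transporters with the lipoprotein receptor Vldlr, and 11 cytosolic tRNA synthetases. They were chosen by gene symbol, and all 39 were found among the 20819 genes of the table. Messenger RNA was sequenced from mouse kidney tubuloids, which are epithelial structures that grow in Matrigel from dissociated kidney cortex. The tissue came from 4 wildtype mice, and every library was made 12 h after the treatment began. The 3 groups were tubuloids with myoglobin and 100 nM dexamethasone, tubuloids with myoglobin alone, and tubuloids with vehicle, with 4 libraries each. Myoglobin is the haem protein of muscle that injures tubules when it is released into the blood, and dexamethasone is a synthetic agonist of the glucocorticoid receptor. Strain, sex, age and the myoglobin dose are not given in the sources used here. The labels number the libraries of each group from 1 to 4 without saying that a number stands for a mouse, so the p-values measure only the spread between these samples, which may be technical.

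ATF4 is the effector of the integrated stress response. When any of several kinases, such as GCN2 (Eif2ak4), which senses uncharged tRNA, or the haem-regulated kinase Eif2ak1, phosphorylates the translation factor eIF2, most translation slows while the Atf4 message is translated more. ATF4 protein then binds amino acid response elements, often as a dimer with a C/EBP factor, and raises transcription of genes for amino acid synthesis, amino acid uptake and tRNA charging. Because this control is exerted on translation and on the protein, the level of Atf4 messenger RNA is not a direct measure of ATF4 activity.

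The core of that response element, TGATGNAA, was searched on both strands in the window from 250 bases before to 50 bases after each transcription start in the RefSeq promoters of GRCm38.p6. The same letters also form part of composite elements bound by C/EBP factors, so a match names no single factor. Of the 31 genes of the set with a promoter in that table, 12 held the core (38.7%), compared with 4.51% of all 27025 genes there. The form TGATGCAA was present in 9 of the 31 (29%), compared with 1.03% of all genes. Because the set was chosen as the ATF4 program, an excess of the core could be foreseen, and these shares are a description and not a test. The comparison covers every gene with a listed promoter, whether or not tubuloids express it. Stretches running from 120 bases before to 30 bases after the start are shown for 6 genes. They are those of smallest p among genes that hold the core and had more messenger RNA with myoglobin, with no overlap between groups. Nupr1, Aars, Iars and Got1 met the same conditions with larger p and are not shown. Each stretch is written 5′ to 3′ along the strand of the gene. Capitals mark the core, which reads TTNCATCA where it lies on the other strand.
Trib3, chr2:152344031-152344180, minus strand: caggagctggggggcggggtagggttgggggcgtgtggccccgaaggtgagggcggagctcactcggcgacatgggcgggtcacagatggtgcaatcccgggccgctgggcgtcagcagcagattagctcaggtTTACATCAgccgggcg
Asns, chr6:7693180-7693329, minus strand: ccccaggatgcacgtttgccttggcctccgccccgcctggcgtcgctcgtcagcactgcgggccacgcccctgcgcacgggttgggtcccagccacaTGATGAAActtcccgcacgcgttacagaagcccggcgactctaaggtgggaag
Slc1a4, chr11:20332684-20332833, minus strand: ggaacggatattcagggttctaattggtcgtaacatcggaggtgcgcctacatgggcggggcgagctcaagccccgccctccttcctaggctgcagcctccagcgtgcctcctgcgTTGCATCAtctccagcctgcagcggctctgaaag
Tars, chr15:11399629-11399778, minus strand: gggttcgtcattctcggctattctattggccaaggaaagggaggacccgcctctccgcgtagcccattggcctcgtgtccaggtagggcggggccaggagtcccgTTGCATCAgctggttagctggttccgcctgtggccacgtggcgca
Pycr1, chr11:120643719-120643868, minus strand: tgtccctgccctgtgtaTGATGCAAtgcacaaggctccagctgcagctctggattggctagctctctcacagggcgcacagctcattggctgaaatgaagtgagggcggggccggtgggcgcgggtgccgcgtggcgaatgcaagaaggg
Yars, chr4:129189783-129189932, plus strand: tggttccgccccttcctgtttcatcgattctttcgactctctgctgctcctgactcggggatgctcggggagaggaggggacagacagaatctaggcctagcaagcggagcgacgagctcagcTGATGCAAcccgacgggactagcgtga

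The core lay close to the transcription start in several of these genes. It began 23 bases before the start in Asns, 15 before it in Tars and 4 before it in Slc1a4. It began at base 4 after the start in Yars and at base 15 in Trib3, and 103 bases before the start in Pycr1. The other genes of the set with a match were Gars, Nupr1, Aars, Iars, Vldlr and Got1, and Aars held 2 matches. No promoter in that table was listed for Slc7a5, Nars, Cars, Eif4ebp1, Slc1a5, Wars, Lars and Cth.

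The deposited values are taken to be reads per gene that were scaled by library and then rounded, and are called normalised reads below. Depth, estimated here from the steps between low values, was 4.85 to 5.92 M reads in 11 libraries and 3.25 M in replicate 4 of the myoglobin + dexamethasone group. That library stands apart: its size factor was 0.568 against at least 0.903 in the others, 2179 genes were at 0, and its highest value was 5857 normalised reads, while no other library went above 4842. Among the 39 genes it was the highest library of its group for 30 (76.9%), while it was highest for 51.8% of all genes with a mean of at least 200 normalised reads. Its values for these genes lay a median of 0.23 (log2) above the mean of the other 3 libraries. The counts of called genes below are therefore given with and without it, as are the main fold changes of both agents over myoglobin and over vehicle. Genes known to respond to each treatment were checked first: Hmox1, the haem-degrading enzyme, averaged 460 ± 13.7 normalised reads with myoglobin and 113 ± 7.72 with vehicle, and Fkbp5, a glucocorticoid receptor target, averaged 554 ± 45 with myoglobin and dexamethasone and 242 ± 15.4 with myoglobin (SD, n = 4 each). Epithelial markers were abundant in vehicle libraries (Epcam at 947 to 1010, Cdh1 at 2388 to 2442), and of 7 proximal tubule markers in the table Slc34a1, Cubn and Slc5a2 were at 0 to 7 in every library, while Lrp2 was at 216 to 456 and Slc27a2 at 162 to 256. Of the 4 proximal markers tested, Lrp2 was higher with myoglobin (387 ± 48.2 normalised reads, against 233 ± 22.2 with vehicle, log2 fold change 0.73 ± 0.1, adjusted p = 9.17e-05) and the others did not pass. The summed level of the 7 was 529 to 647 with myoglobin and dexamethasone, 564 to 697 with myoglobin and 414 to 515 with vehicle. Of 7 distal nephron and collecting duct markers in the table, 1 was higher and 5 were lower with myoglobin than with vehicle. With both agents, 2 of these 7 were higher than with vehicle and 5 were lower. The summed level of these distal markers was 3154 to 3482 with myoglobin and dexamethasone, 2150 to 2420 with myoglobin and 2371 to 2982 with vehicle. That sum hides the 5 lower markers, because Calb1 (1858 to 2535 with both agents, 1301 to 1496 with vehicle) and Scnn1a (428 to 493 and 117 to 143) were higher. The part of these marker shifts in the results below was not tested. Markers of other cell types were present too. In vehicle libraries 5 podocyte markers summed to 666 to 991 (Podxl at 375 to 533) and 6 immune markers to 570 to 687 (Ptprc at 401 to 484). There, 7 markers of fibroblasts and stroma summed to 129 to 208 and 5 of endothelium to 56 to 62. In bulk RNA, fewer cells of a type and less RNA per cell cannot be told apart.

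Each gene was tested with limma on log2(normalised reads + 1) over 14558 genes, and passed at a Benjamini-Hochberg adjusted p below 0.05. Fold changes are on that log2 scale, given with their SE. All 39 genes passed the filter on low values, and 34 had a mean of at least 200 normalised reads.

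Per kilobase of exon, the set spanned 20.6 (Pycr1) to 280 (Wars) normalised reads in vehicle tubuloids, with a median of 111. After Wars came Atf4 and the glutamine transporter Slc1a5, both at 244 per kilobase, then Gars at 230, Nars at 205 and Shmt2 at 203. The message for Atf4 was thus among the most abundant of the set before any treatment. At the low end stood Ddit3 at 43.1, Trib3 at 29.4 and Pycr1. Of the 38 pairs of neighbours in this order, 8 did not overlap between libraries, so most of the order is not resolved by 4 libraries.

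**Figure D1:**
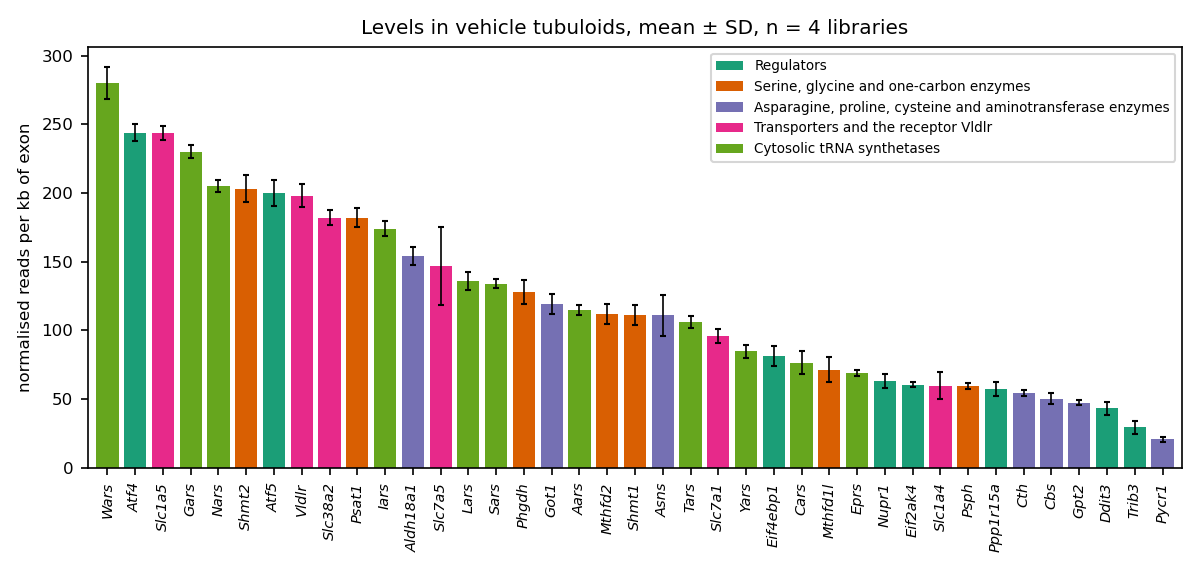
Normalised reads per kilobase of exon in vehicle tubuloids for the 39 genes in order of level (bars, mean; error bars, SD; n = 4 libraries), coloured by role. Wars stands at 280 and Pycr1 at 20.6, and most neighbours overlap.

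With myoglobin, 26 of the 39 genes were higher than with vehicle and 0 were lower. Over all tested genes 8.71% were higher and 9.62% lower, and over genes with a mean of at least 200 normalised reads 10.9% were higher. The median log2 fold change of the set was 0.26, beside 0.00 over all tested genes, and 35 of 39 values were above 0. In 31 of the 39 genes every myoglobin library was above every vehicle library, compared with 12.9% of all tested genes and 17.3% of those with a mean of at least 200. Trib3, Slc1a4, Pycr1, Asns, Atf5 and Cth had the highest values, at 0.67 to 1.15, and the other genes that passed lay at 0.20 to 0.41. Without the library that stands apart, which enters only through the shared estimate of spread, 32 of 39 were higher (13.3% of 14510 genes). The 6 genes added were Phgdh, Psat1, Slc38a2, Slc1a5, Gars and Sars.

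**Figure D2:**
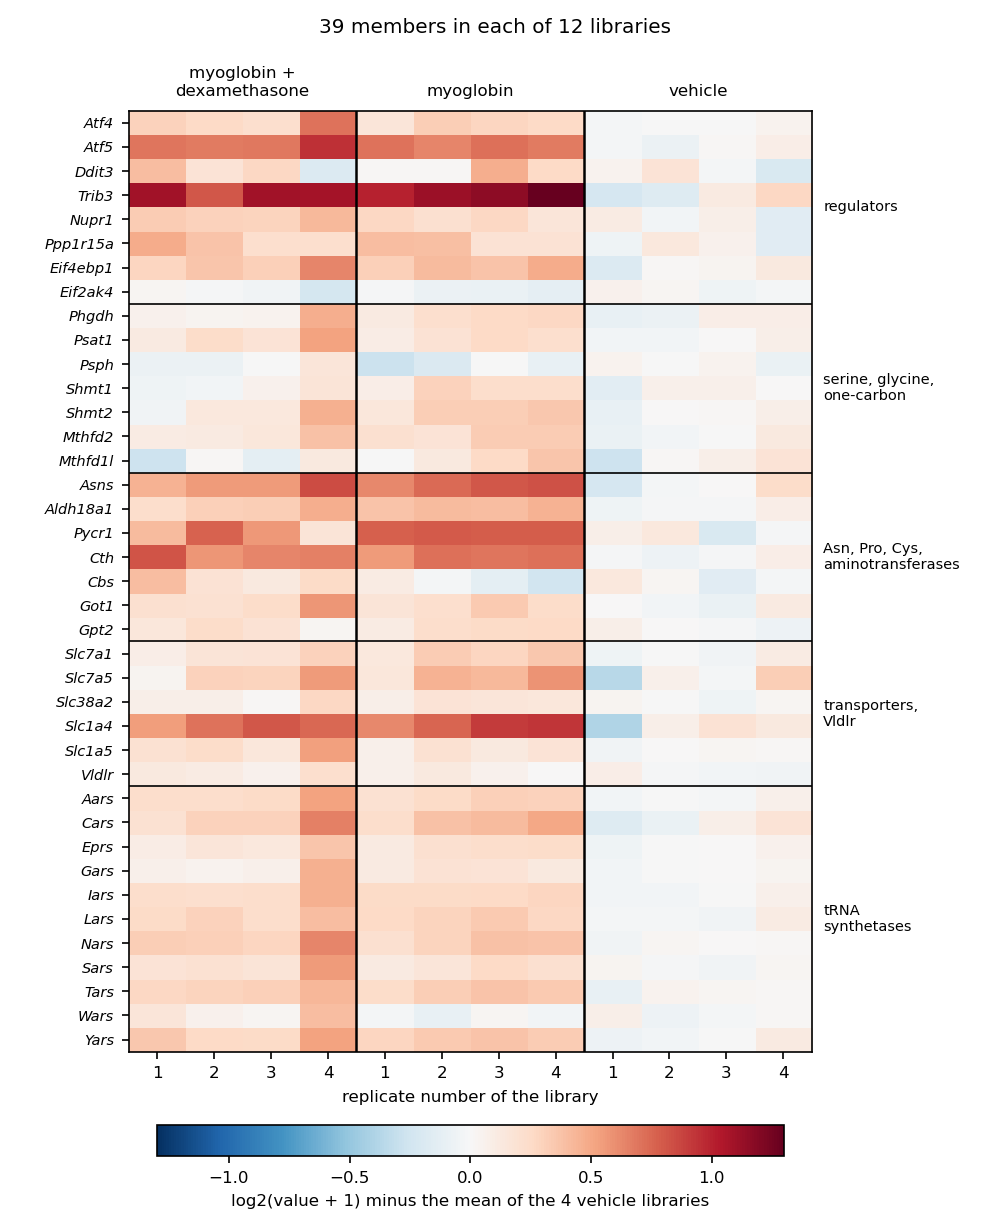
Each of the 39 genes (rows, by role) in each of the 12 libraries (columns, by group and replicate number), as log2(normalised reads + 1) minus the mean of the 4 vehicle libraries. The columns with myoglobin, with or without dexamethasone, are redder than vehicle in most rows, and replicate 4 of the myoglobin + dexamethasone group is the darkest of its group in most rows.

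Among the regulators, 6 of 8 rose with myoglobin: Atf4, Atf5, Trib3, Nupr1, Ppp1r15a and Eif4ebp1. Atf4 itself had 711, 690, 671 and 941 normalised reads with myoglobin and dexamethasone, 644, 720, 697 and 691 with myoglobin, and 564, 572, 572 and 596 with vehicle. The myoglobin and vehicle libraries did not overlap, yet the rise was small (log2 fold change 0.26 ± 0.081, adjusted p = 0.0392). Leaving out any of 7 libraries (myoglobin replicate 2, 3 or 4, or any vehicle replicate) brought the adjusted p to 0.0533 to 0.106, while leaving out replicate 4 of the myoglobin + dexamethasone group brought it to 1.07e-04. Atf5, a related factor whose translation is controlled in a similar way, had 645, 636, 641 and 770 normalised reads with myoglobin and dexamethasone, 648, 617, 655 and 635 with myoglobin, and 390, 377, 402 and 423 with vehicle. Both groups with myoglobin lay above vehicle without overlap (myoglobin over vehicle 0.68 ± 0.058, adjusted p = 6.05e-07), and replicates 1 to 3 with dexamethasone sat within the range of myoglobin alone.

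Trib3, a pseudokinase that ATF4 induces and that in turn dampens ATF4, had the highest log2 fold change of the set. There were 133, 109, 133 and 132 normalised reads with myoglobin and dexamethasone, 125, 135, 140 and 154 with myoglobin, and 53, 55, 67 and 75 with vehicle. The level with myoglobin was 2.21-fold that with vehicle (log2 fold change 1.15 ± 0.12, adjusted p = 4.36e-06). Ddit3 encodes the factor CHOP, which is often induced beside Trib3. It had 97, 83, 89 and 65 normalised reads with myoglobin and dexamethasone, 74, 74, 102 and 88 with myoglobin, and 76, 83, 72 and 64 with vehicle. Its groups overlapped, and the log2 fold change of 0.19 ± 0.14 between myoglobin and vehicle did not pass (adjusted p = 0.406; 95% interval -0.11 to 0.49).

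Eif4ebp1 encodes a repressor of cap-dependent translation. It had 216, 229, 220 and 276 normalised reads with myoglobin and dexamethasone, 220, 237, 230 and 249 with myoglobin, and 157, 180, 182 and 194 with vehicle (myoglobin over vehicle 0.39 ± 0.083, adjusted p = 0.00327). Ppp1r15a, the GADD34 subunit that directs a phosphatase to eIF2 and so ends the response, had 235, 218, 196 and 195 with myoglobin and dexamethasone, 222, 220, 192 and 191 with myoglobin, and 162, 185, 175 and 152 with vehicle (0.29 ± 0.083, adjusted p = 0.0236). Nupr1, a small stress-induced nuclear protein, averaged 201 ± 8.54 with myoglobin and dexamethasone, 186 ± 6.98 with myoglobin and 159 ± 12.9 with vehicle. Its rise with myoglobin passed (0.23 ± 0.068, adjusted p = 0.0301). The calls for Ppp1r15a and Nupr1 each ended when 1 of several libraries was left out: for Ppp1r15a myoglobin replicate 1 or 2 or vehicle replicate 1 or 4 (adjusted p 0.061 to 0.0771), and for Nupr1 myoglobin replicate 1, 2 or 3 or vehicle replicate 2 or 4 (0.0593 to 0.0923). Eif2ak4, the kinase that senses uncharged tRNA, averaged 432 ± 32.9 normalised reads with myoglobin and dexamethasone, 428 ± 12.1 with myoglobin and 451 ± 15.7 with vehicle, and did not pass in any comparison.

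In the synthesis of asparagine, proline and cysteine and in transamination, 6 of 7 genes rose with myoglobin. Asns, which makes asparagine from aspartate and glutamine, had 415, 444, 445 and 547 normalised reads with myoglobin and dexamethasone, 468, 505, 529 and 538 with myoglobin, and 259, 297, 304 and 358 with vehicle. Aldh18a1, which catalyses the first step from glutamate to proline, had 733, 774, 783 and 867 with myoglobin and dexamethasone, 810, 831, 826 and 857 with myoglobin, and 604, 619, 618 and 664 with vehicle. For both genes, each group with myoglobin lay above vehicle without overlap. With myoglobin Asns rose by 0.75 ± 0.092 (log2, adjusted p = 2.99e-05) and Aldh18a1 by 0.41 ± 0.049 (adjusted p = 2.34e-05).

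Pycr1, the mitochondrial enzyme of the last step to proline, had 108, 138, 120 and 91 normalised reads with myoglobin and dexamethasone, 139, 141, 140 and 140 with myoglobin, and 85, 89, 70 and 80 with vehicle. The myoglobin libraries lay within 2 normalised reads of each other and were 0.79 ± 0.11 (log2) above vehicle (adjusted p = 1.38e-04). With dexamethasone added, every library was below every library with myoglobin alone, by 1 normalised read in the closest pair, and the log2 difference of -0.31 ± 0.11 did not pass (adjusted p = 0.126). It passed without replicate 2 of the myoglobin + dexamethasone group (-0.40, adjusted p = 0.0451).

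Cth and Cbs are the consecutive enzymes of transsulfuration, which turns homocysteine into cysteine, and each is described in turn. Cth, the later enzyme, had 268, 226, 235 and 239 normalised reads with myoglobin and dexamethasone, 223, 249, 246 and 249 with myoglobin, and 150, 145, 150 and 161 with vehicle. Its rise with myoglobin was 0.67 ± 0.066 (log2, adjusted p = 2.75e-06), and the difference with dexamethasone added was 0.00 ± 0.066. Cbs, the earlier enzyme, had 494, 427, 408 and 445 normalised reads with myoglobin and dexamethasone, 402, 368, 343 and 315 with myoglobin, and 412, 382, 338 and 369 with vehicle. Myoglobin and vehicle libraries overlapped for Cbs (-0.07 ± 0.079, adjusted p = 0.583), while every library with dexamethasone lay above every library with myoglobin alone.

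Got1, the cytosolic aspartate aminotransferase, averaged 376 ± 50.5 normalised reads with myoglobin and dexamethasone, 358 ± 18.5 with myoglobin and 303 ± 18.6 with vehicle. Gpt2, the mitochondrial alanine aminotransferase, averaged 296 ± 18.2 with myoglobin and dexamethasone, 308 ± 14.6 with myoglobin and 267 ± 10.8 with vehicle. With myoglobin Got1 rose by 0.24 ± 0.077 (adjusted p = 0.0412) and Gpt2 by 0.21 ± 0.056 (adjusted p = 0.0168). Leaving out myoglobin replicate 2, 3 or 4 or vehicle replicate 1, 2 or 3 brought Got1 to an adjusted p of 0.0746 to 0.126, and leaving out myoglobin replicate 3 or 4 or vehicle replicate 4 brought Gpt2 to 0.0503 to 0.0537.

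**Figure D3:**
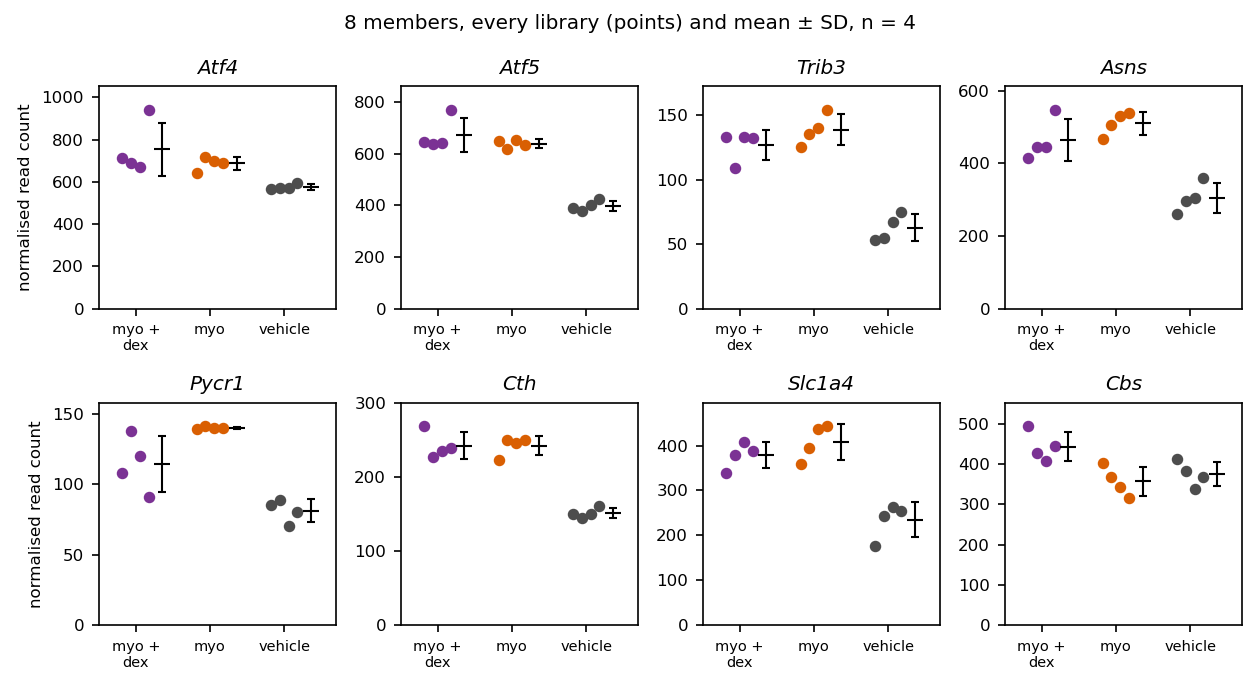
Normalised reads of 8 genes in every library (points, replicates 1 to 4 from left to right) with the mean and SD beside them, for myoglobin + dexamethasone (myo + dex), myoglobin (myo) and vehicle. Atf4, Atf5, Trib3, Asns, Pycr1, Cth and Slc1a4 separate both groups with myoglobin from vehicle. Cbs (higher) and Pycr1 (lower) separate myoglobin + dexamethasone from myoglobin.

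Of the serine, glycine and one-carbon enzymes, 3 of 7 rose with myoglobin, and 5 of 7 without the library that stands apart. Serine is made from a glycolytic intermediate by Phgdh, Psat1 and Psph in turn. Phgdh had 330, 325, 327 and 438 normalised reads with myoglobin and dexamethasone, 344, 369, 379 and 382 with myoglobin, and 296, 300, 336 and 336 with vehicle. Psat1 averaged 932 ± 121 with myoglobin and dexamethasone, 882 ± 40.2 with myoglobin and 773 ± 28.5 with vehicle. Psph averaged 258 ± 20.1 with myoglobin and dexamethasone, 234 ± 19 with myoglobin and 258 ± 10.6 with vehicle. None of the 3 passed for myoglobin, with adjusted p of 0.0912 for Phgdh, 0.0723 for Psat1 and 0.176 for Psph. The value of Psph was below 0 (-0.14 ± 0.069), unlike those of Phgdh (0.22 ± 0.085) and Psat1 (0.19 ± 0.069).

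Shmt1 and Shmt2, the cytosolic and mitochondrial enzymes that split serine into glycine and a one-carbon unit, both rose with myoglobin. Shmt1 had 414, 422, 449 and 485 normalised reads with myoglobin and dexamethasone, 458, 529, 505 and 505 with myoglobin, and 392, 450, 451 and 434 with vehicle (myoglobin over vehicle 0.21 ± 0.062, adjusted p = 0.0267). Shmt2 had 613, 694, 693 and 872 with myoglobin and dexamethasone, 697, 788, 790 and 807 with myoglobin, and 591, 633, 636 and 665 with vehicle (0.29 ± 0.082, adjusted p = 0.0239). For both, replicates 1 to 3 with dexamethasone lay below replicates 2 to 4 with myoglobin alone, and replicate 4 with dexamethasone was the highest of its group. Mthfd2, the mitochondrial dehydrogenase of folate-bound one-carbon units, rose as well, averaging 446 ± 41.1 with myoglobin and dexamethasone, 467 ± 25.7 with myoglobin and 390 ± 25.1 with vehicle (0.26 ± 0.065, adjusted p = 0.0104). Mthfd1l, which releases formate from mitochondrial folate, averaged 302 ± 35.9 with myoglobin and dexamethasone, 359 ± 39.9 with myoglobin and 316 ± 40.7 with vehicle, and did not pass (0.19 ± 0.1, adjusted p = 0.248). The Shmt1 call ended without myoglobin replicate 2, 3 or 4 or vehicle replicate 1 (adjusted p 0.0646 to 0.0887), and the Shmt2 call without those or vehicle replicate 2 or 3 (0.0527 to 0.0704).

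Of the transporters and Vldlr, 3 of 6 rose with myoglobin, and 5 of 6 without the library that stands apart. Slc1a4, which exchanges serine, alanine and other small neutral amino acids, had 338, 379, 407 and 389 normalised reads with myoglobin and dexamethasone, 358, 394, 437 and 443 with myoglobin, and 177, 244, 264 and 254 with vehicle. It rose by 0.81 ± 0.11 (log2, adjusted p = 6.49e-05), and the lowest library with myoglobin stood well above the highest with vehicle. Slc7a1, the carrier of arginine and lysine, averaged 1254 ± 76.5 with myoglobin and dexamethasone, 1336 ± 90.3 with myoglobin and 1104 ± 59.9 with vehicle (0.27 ± 0.057, adjusted p = 0.00295). Slc7a5, the light chain of the LAT1 exchanger for large neutral amino acids, had 551, 658, 656 and 786 with myoglobin and dexamethasone, 595, 735, 718 and 806 with myoglobin, and 417, 562, 525 and 670 with vehicle. It was the only gene of the 26 that passed with overlapping groups (0.40 ± 0.13, adjusted p = 0.0397). Its call ended when 1 of 8 libraries was left out, namely replicate 2 or 3 of the myoglobin + dexamethasone group, myoglobin replicate 2, 3 or 4, or vehicle replicate 1, 2 or 3 (adjusted p 0.0516 to 0.123).

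Slc38a2, a sodium-coupled carrier that cells induce when amino acids run short, did not pass. It had 1693, 1691, 1624 and 1938 normalised reads with myoglobin and dexamethasone, 1691, 1810, 1795 and 1779 with myoglobin, and 1651, 1596, 1542 and 1636 with vehicle (myoglobin over vehicle 0.14 ± 0.051, adjusted p = 0.0758). Slc1a5, the main glutamine exchanger, averaged 1243 ± 157 with myoglobin and dexamethasone, 1126 ± 45.8 with myoglobin and 1020.0 ± 21.3 with vehicle (0.14 ± 0.066, adjusted p = 0.163). The groups did not overlap between myoglobin and vehicle for either gene, and both passed without the library that stands apart (adjusted p = 0.00279 for Slc38a2 and 0.00484 for Slc1a5). Vldlr, which takes up triglyceride-rich lipoproteins, had the highest values of the set, at 2174 ± 101 with myoglobin and dexamethasone, 2083 ± 76.9 with myoglobin and 1991 ± 85.4 with vehicle, and did not pass (0.07 ± 0.047, adjusted p = 0.384).

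Aminoacyl-tRNA synthetases load each amino acid onto its tRNA, and each gene here is named for the amino acid its enzyme handles. Of the 11 cytosolic ones, 8 rose with myoglobin, with log2 fold changes of 0.20 (Eprs) to 0.38 (Cars), and in 10 of 11 the myoglobin and vehicle libraries did not overlap. Tars, for threonine, had 756, 766, 777 and 843 normalised reads with myoglobin and dexamethasone, 741, 782, 810 and 796 with myoglobin, and 588, 647, 640 and 634 with vehicle (0.32 ± 0.046, adjusted p = 1.34e-04). Lars, for leucine, had 868, 895, 856 and 959 with myoglobin and dexamethasone, 874, 893, 924 and 877 with myoglobin, and 713, 713, 706 and 783 with vehicle (0.29 ± 0.045, adjusted p = 2.61e-04). In both genes the groups with and without dexamethasone overlapped and lay above vehicle. Yars, for tyrosine, had 643, 605, 600 and 725 with myoglobin and dexamethasone, 614, 638, 654 and 636 with myoglobin, and 482, 491, 501 and 545 with vehicle (0.33 ± 0.057, adjusted p = 6.43e-04). Cars, for cysteine, had 574, 617, 618 and 788 with myoglobin and dexamethasone, 589, 652, 667 and 710 with myoglobin, and 446, 473, 527 and 569 with vehicle (0.38 ± 0.093, adjusted p = 0.00887).

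The other synthetases that rose were Nars for asparagine, Iars for isoleucine, Aars for alanine and Eprs, which handles glutamate and proline. Nars averaged 1174 ± 142 normalised reads with myoglobin and dexamethasone, 1112 ± 61.6 with myoglobin and 893 ± 18.1 with vehicle (myoglobin over vehicle 0.31 ± 0.066, adjusted p = 0.00319). Iars averaged 1121 ± 93.4 with myoglobin and dexamethasone, 1099 ± 11.6 with myoglobin and 918 ± 29.2 with vehicle (0.26 ± 0.05, adjusted p = 0.00153). For Nars and Iars every library with myoglobin, with or without dexamethasone, was above every vehicle library. Aars averaged 1326 ± 136 with myoglobin and dexamethasone, 1282 ± 43.2 with myoglobin and 1068 ± 33.2 with vehicle (0.26 ± 0.058, adjusted p = 0.0042). Eprs averaged 1424 ± 122 with myoglobin and dexamethasone, 1426 ± 53.8 with myoglobin and 1245 ± 41.4 with vehicle (0.20 ± 0.054, adjusted p = 0.0186). The Eprs call ended without myoglobin replicate 2, 3 or 4 or vehicle replicate 1 (adjusted p 0.0505 to 0.0581). Gars, for glycine, averaged 808 ± 119 with myoglobin and dexamethasone, 799 ± 19.8 with myoglobin and 719 ± 14.6 with vehicle and did not pass (0.15 ± 0.071, adjusted p = 0.165). Sars, for serine, averaged 839 ± 114 with myoglobin and dexamethasone, 786 ± 35.4 with myoglobin and 690 ± 17.2 with vehicle and did not pass either (0.19 ± 0.07, adjusted p = 0.0815). Both passed without the library that stands apart, with an adjusted p of 9.70e-04 for Gars and 8.68e-04 for Sars. Wars, for tryptophan, is also known as an interferon-induced gene. It had 1072, 1002, 979 and 1275 normalised reads with myoglobin and dexamethasone, 947, 901, 982 and 940 with myoglobin, and 1014, 921, 945 and 976 with vehicle. Its myoglobin and vehicle libraries overlapped, and the log2 fold change was -0.03 ± 0.067 (adjusted p = 0.796).

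**Figure D4:**
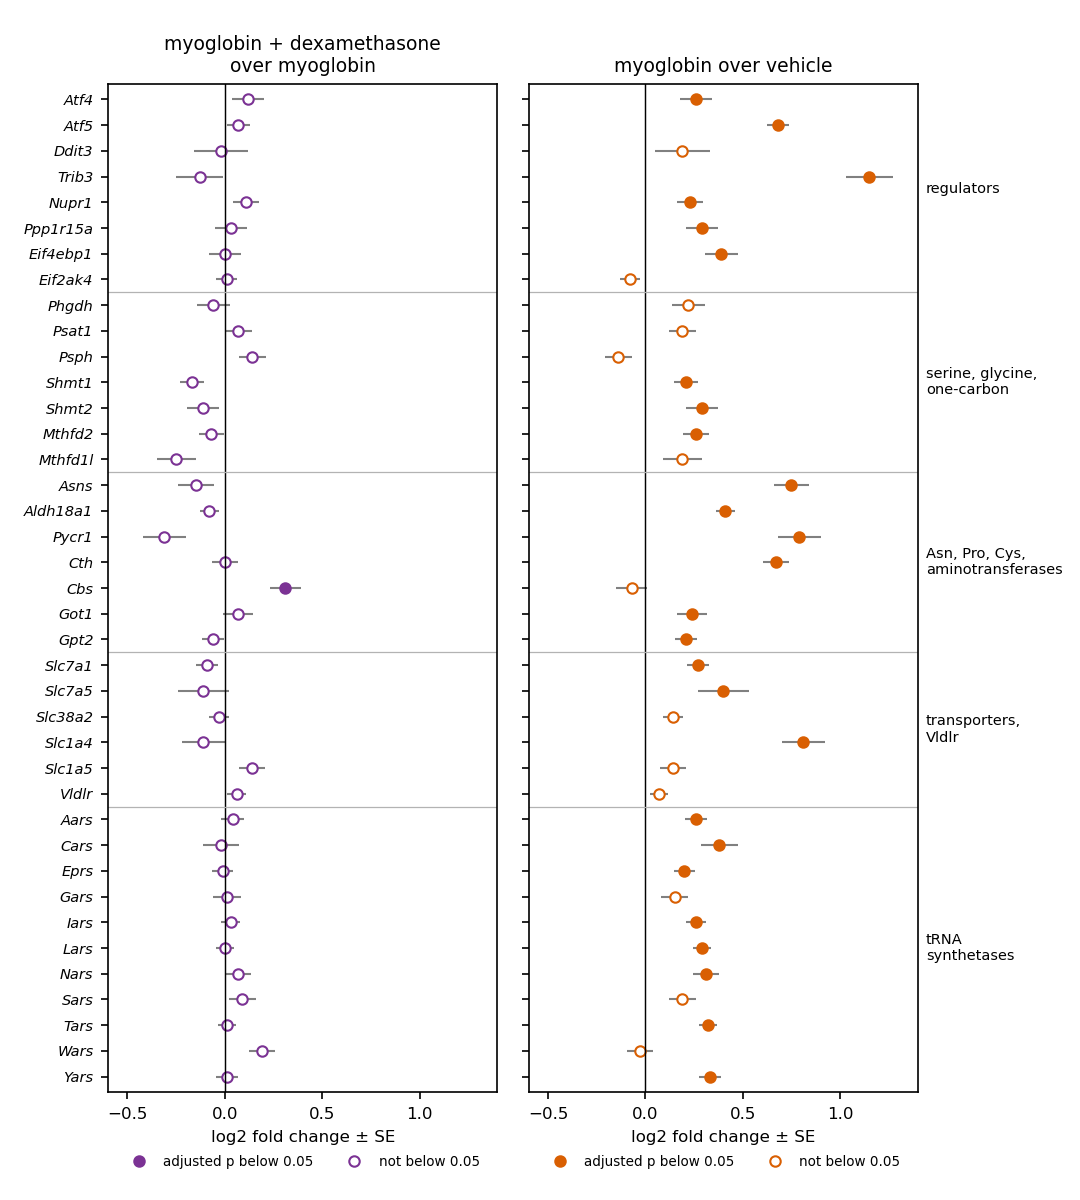
Log2 fold change with SE of the 39 genes for myoglobin + dexamethasone over myoglobin (left) and for myoglobin over vehicle (right); filled points have an adjusted p below 0.05 (limma, n = 4 libraries per group). On the right 26 points are filled, all above 0; on the left 1 is filled, Cbs at 0.31.

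Dexamethasone added to myoglobin changed 1 of the 39 genes. Cbs was higher by 0.31 ± 0.079 (log2, adjusted p = 0.0251), with 444 ± 36.9 normalised reads in the myoglobin + dexamethasone group and 357 ± 37 in the myoglobin group. Over all tested genes 6.98% changed, with 3.08% higher and 3.9% lower. The median log2 fold change of the set was 0.00, beside 0.01 over all tested genes, and 19 of 39 values were above 0. The values ran from -0.31 (Pycr1) to 0.31 (Cbs), and among the tRNA synthetases from -0.02 (Cars) to 0.19 (Wars). Groups did not overlap for 3 genes: Cbs and Nupr1 were higher in every library with dexamethasone and Pycr1 was lower, compared with 13.2% of all tested genes in either direction. The Cbs call ended without replicate 1 of the myoglobin + dexamethasone group or without myoglobin replicate 2, 3 or 4 (adjusted p 0.0504 to 0.0902).

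A gene that misses the threshold is not shown to be unaffected, and the intervals give the sizes that remain possible. For Atf4 the 95% interval of the log2 difference with dexamethasone was -0.05 to 0.29, for Trib3 -0.38 to 0.12, for Asns -0.34 to 0.05 and for Slc1a4 -0.34 to 0.12. For Tars it was -0.09 to 0.10 and for Lars -0.09 to 0.10. Some genes that did not pass had an interval that left out 0. It lay below 0 for Mthfd1l (-0.47 to -0.03, log2 fold change -0.25 ± 0.1, adjusted p = 0.174), Shmt1 (-0.31 to -0.04) and Pycr1 (-0.55 to -0.06). For Wars it lay above 0 (0.05 to 0.33). The intervals are not adjusted for the number of genes. Leaving out the library that stands apart, the interval was -0.08 to 0.09 for Atf4, -0.42 to 0.12 for Trib3, -0.40 to -0.05 for Asns (adjusted p = 0.103), -0.37 to 0.13 for Slc1a4, -0.11 to 0.06 for Tars and -0.11 to 0.05 for Lars. The upper bound for Atf4 thus rested on that library. Without it, the interval also lay below 0 for Phgdh (-0.29 to -0.05), Mthfd1l (-0.53 to -0.09), Mthfd2, Aldh18a1, Slc7a1, Slc38a2 and Gars. It lay above 0 for Wars (0.02 to 0.20), and none of these genes passed. In that fit 3 of 39 genes changed (8.81% of 14510 genes). Cbs was higher (0.31, adjusted p = 0.0335), and the enzymes Shmt1 (-0.22 ± 0.057, adjusted p = 0.0274) and Shmt2 (-0.21 ± 0.057, adjusted p = 0.0342) were lower, with a set median of -0.03. With that library included, Shmt1 stood at -0.17 ± 0.062 (adjusted p = 0.107) and Shmt2 at -0.11 ± 0.082 (adjusted p = 0.449).

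Tubuloids with both agents, set against vehicle, had 26 of 39 genes higher and 0 lower. In this comparison 13.9% of all tested genes were higher and 14.6% lower, and 19.5% of those with a mean of at least 200 normalised reads were higher. The set's median was 0.28, beside 0.00 over all tested genes, and in 24 of 39 genes the groups did not overlap (15.3% of tested genes were higher in this way). The vehicle libraries are shared with the comparison of myoglobin to vehicle, so the counts are not separate evidence. On the log2 scale, Trib3 stood 1.02 above vehicle with both agents and 1.15 with myoglobin alone. Asns stood at 0.60 with both agents and 0.75 with myoglobin, Slc1a4 at 0.70 with both and 0.81 with myoglobin, and Pycr1 at 0.48 with both and 0.79 with myoglobin. Cth stood at 0.67 in either comparison, and Atf5 at 0.75 with both agents and 0.68 with myoglobin. Without the library that stands apart, the values with both agents were 1.00 for Trib3, 0.52 for Asns, 0.68 for Slc1a4, 0.58 for Pycr1, 0.68 for Cth and 0.69 for Atf5. Psat1, Cbs, Slc1a5 and Sars passed against vehicle with both agents and not with myoglobin alone, while Shmt1, Shmt2, Gpt2 and Slc7a5 passed with myoglobin alone and not with both. Several of these calls turned on single libraries. The Cbs groups overlapped, and its call with both agents ended without replicate 1 of the myoglobin + dexamethasone group or without vehicle replicate 2, 3 or 4 (adjusted p 0.0585 to 0.108). With both agents, Gpt2 passed without the library that stands apart or vehicle replicate 1 (adjusted p 0.0119 to 0.0489), Slc7a5 without replicate 1 of the myoglobin + dexamethasone group or vehicle replicate 4 (0.0278 to 0.0435), and Shmt2 without replicate 1 of the myoglobin + dexamethasone group (0.0284). With myoglobin alone, Psat1, Slc1a5 and Sars passed without the library that stands apart. Passing in 1 comparison and not in the other does not show a difference. With every library in the fit, only Cbs of these 8 genes had a call between the groups with and without dexamethasone. Shmt1 and Shmt2 were also called, both lower with dexamethasone, when the library that stands apart was left out (adjusted p = 0.0274 and 0.0342). Without the library that stands apart 26 of 39 were higher with both agents (14.7% of 14510 genes), with a median of 0.23. Of these, 25 were also called with it, while the Mthfd2 call ended and Gpt2 gained one.

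**Figure D5:**
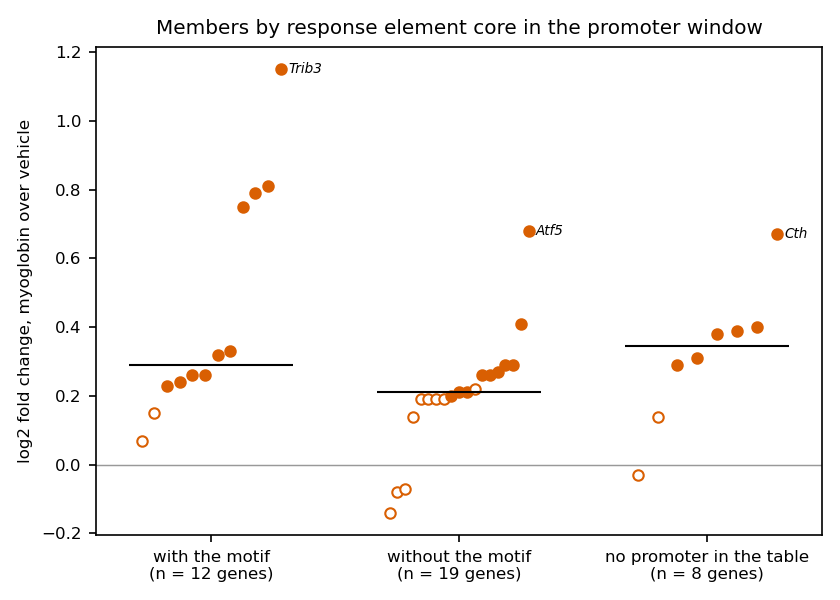
Log2 fold change of myoglobin over vehicle for the 39 genes by whether the response element core was found in the RefSeq promoter window; filled points have an adjusted p below 0.05, lines are medians, and the highest gene of each class is named. The medians are 0.29 with the core, 0.21 without it and 0.34 where the table lists no promoter, and the classes overlap.

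Among the 12 genes with the response element core shown above, 10 rose with myoglobin, with a median log2 fold change of 0.29 and a range of 0.07 (Vldlr) to 1.15 (Trib3). Among the 19 genes with a promoter and without the core, 10 rose, with a median of 0.21 and a range of -0.14 (Psph) to 0.68 (Atf5). Among the 8 genes with no promoter in the table, 6 rose, with a median of 0.34. The highest 4 values of the set, in Trib3, Slc1a4, Pycr1 and Asns, belonged to genes with the core, while Atf5 and Aldh18a1 rose without one in this window. No match says only that these letters are not in the window, and enhancers within the gene were not searched.

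Other genes of the pathway, from lists that do not contain the 39, put these values in context. For scale, 8.71% of all tested genes were higher with myoglobin than with vehicle and 9.62% were lower. Of 12 further cytosolic synthetases and parts of their complex, 5 rose with myoglobin and 0 fell, led by Mars1 for methionine (806 ± 25.6 with myoglobin, 612 ± 34.9 with vehicle, log2 fold change 0.40) and Farsb for phenylalanine (0.20). Of 17 mitochondrial synthetases, which are encoded by separate genes, 2 rose, Mars2 (0.40) and Nars2 (0.31), and 0 fell. The median was 0.03 in the mitochondrial list and 0.26 in the 11 cytosolic synthetases of the set. Of 15 genes for the other eIF2 kinases, eIF2B, eIF2 and its phosphatases, 2 rose, the eIF2 subunit Eif2s2 (0.18) and Impact (0.29), whose protein inhibits GCN2. For the mitochondrial synthetases and for these 15 genes, the count that rose is close to the share over all tested genes. The haem-regulated kinase Eif2ak1 averaged 520 ± 9.15 with myoglobin and 495 ± 8.77 with vehicle and did not pass (0.07 ± 0.036, adjusted p = 0.221).

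Of 23 other genes associated with ATF4 in the literature, 14 rose with myoglobin and 2 fell. The smallest p-values belonged to Aldh1l2, a mitochondrial formyl-tetrahydrofolate dehydrogenase, with 464 ± 28.3 normalised reads with myoglobin and 146 ± 14.1 with vehicle (1.66 ± 0.11, adjusted p = 3.53e-08), and to the secreted glycoprotein Stc2 (0.72 ± 0.051, adjusted p = 7.10e-08). The genes that fell were the stress factor Atf3 (-0.79 ± 0.12, adjusted p = 1.63e-04) and Sesn2, a leucine-sensing inhibitor of mTORC1 (-0.17 ± 0.045, adjusted p = 0.0139). Of 25 other amino acid and folate enzymes, 1 rose, Gldc (0.34), and 2 fell, among them Mtr (-0.18). Of 15 tested transporters, 2 rose, the glutamate carriers Slc1a1 (1.32 ± 0.12) and Slc1a3 (1.09 ± 0.1), and 3 fell, with Slc38a3 (-0.61) and Slc36a1 (-0.14) of smallest p. Leaving out 1 library ended the call of Gldc in 9 of 12 cases (adjusted p 0.0527 to 0.127), that of Sesn2 without vehicle replicate 3 (0.0569), that of Mtr without vehicle replicate 2 (0.051) and that of Slc36a1 without myoglobin replicate 3 (0.0649). Of the further cytosolic synthetases and complex parts, Aimp2 lost its call in 11 of 12 cases (adjusted p 0.0515 to 0.148). Eef1e1 lost it in 7 (0.0515 to 0.123) and Rars in 5 (0.0647 to 0.0719). Leaving out each library in turn gave 2 to 7 further cytosolic synthetases and 10 to 18 genes associated with ATF4 that rose. Without the library that stands apart, 7 of 12 further cytosolic synthetases and 4 of 15 eIF2-related genes rose with myoglobin. Of 23 genes associated with ATF4, 18 then rose and 2 fell. In the same fit 3 of 25 enzymes rose and 2 fell, and 3 of 15 transporters rose and 3 fell. The calls with every library in the fit were made over the same 14558 genes, of which 18.3% passed in either direction, 8.71% higher and 9.62% lower. Those without the library that stands apart were made over 14510 genes, of which 26.1% passed in either direction and 13.3% were higher.

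With dexamethasone added to myoglobin, 3 genes of these lists that had risen with myoglobin were lower. Aldh1l2 averaged 311 ± 56.4 normalised reads with myoglobin and dexamethasone and 464 ± 28.3 with myoglobin (-0.60 ± 0.11, adjusted p = 0.00402). Stc2 averaged 409 ± 24.7 with both agents and 531 ± 21 with myoglobin (-0.38 ± 0.051, adjusted p = 3.86e-04), and Mars2 averaged 220 ± 19.5 with both agents and 279 ± 31.8 with myoglobin (-0.34 ± 0.086, adjusted p = 0.0257). Sesn2, lower with myoglobin, was higher with dexamethasone added (556 ± 24 with both agents and 488 ± 15.9 with myoglobin, adjusted p = 0.0201). Among amino acid and folate enzymes, thymidylate synthase Tyms was lower (-0.41), while glutamine synthetase Glul (0.36), arginase Arg2 (0.35) and the cytosolic formyl-tetrahydrofolate dehydrogenase Aldh1l1 (0.35) were higher. The transporter Slc36a1 was higher as well (0.14, adjusted p = 0.0444), and 0 of 12 further cytosolic synthetases and 0 of 15 eIF2-related genes passed. Of these calls with dexamethasone, 3 ended when 1 of several libraries was left out. The Mars2 groups overlapped, and its call ended without replicate 1 or 3 of the myoglobin + dexamethasone group or myoglobin replicate 2 or 4 (adjusted p 0.0557 to 0.0935). The Sesn2 call ended without replicate 3 of the myoglobin + dexamethasone group or myoglobin replicate 2, 3 or 4 (0.0511 to 0.0703), and the Slc36a1 call in 10 of 12 cases (0.053 to 0.127). Without the library that stands apart, the log2 fold changes with dexamethasone were -0.46 for Aldh1l2, -0.39 for Stc2, -0.29 for Mars2 (adjusted p = 0.0473) and 0.17 for Sesn2, and -0.44 for Tyms, 0.28 for Glul, 0.25 for Arg2, 0.39 for Aldh1l1 and 0.15 for Slc36a1. All of these passed, and so did the valine synthetase Vars (0.14), the death receptor Tnfrsf10b (-0.25) and Slc38a3 (0.40). For dexamethasone added to myoglobin, 8.81% of the 14510 genes of that fit passed. Set against vehicle, tubuloids with both agents had 7 higher and 0 lower of 12 further cytosolic synthetases and 1 higher and 2 lower of 17 mitochondrial ones. They had 14 higher and 1 lower of 23 other genes associated with ATF4, 3 higher and 0 lower of 15 eIF2-related genes, 7 higher and 4 lower of 25 enzymes, and 3 higher and 2 lower of 15 transporters (28.6% of all tested genes passed). Leaving out the library that stands apart, tubuloids with both agents had 6 higher and 0 lower of the further cytosolic synthetases, 1 higher and 0 lower of the mitochondrial ones, and 15 higher and 2 lower of the genes associated with ATF4. Of the eIF2-related genes 3 were then higher and 0 lower, of the enzymes 6 higher and 4 lower, and of the transporters 3 higher and 2 lower. Over all 14510 genes of that fit, 14.7% were higher and 14.4% lower with both agents than with vehicle.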

How the data were processed

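RNA-seq libraries of 12 tubuloid samples were compared in 3 groups of 4. The authors deposited 1 table of whole numbers, used here as a score: each value appears to be a gene's reads after division by the library's size factor and rounding, so tests of counts were not applicable and depths are estimates. Per the submitters' processing notes, the tools were DESeq2 1.36.0, featureCounts 2.0.3, Picard 2.27.4, STAR 2.7.10a and Trimmomatic 0.39, on build mm10 and with no roles given. Whether duplicate reads were removed is not given in the sources used here.

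Genes with at least 10 normalised reads in at least 4 libraries were tested with limma 3.58.1 (R 4.3.3, trend) on log2(value + 1), 3 groups in 1 fit, two-sided, with Benjamini-Hochberg adjustment. Exon lengths came from GENCODE M21 and promoters from RefSeq (GRCm38.p6). The 39 genes and the other gene lists were chosen with earlier results of these data known, so the counts are not independent support. All 39 are named; of the other lists, the 2 genes of smallest p per comparison, and members of counts of 5 or fewer, chosen after their values were seen. The test was checked on simulated data in which libraries were drawn independently. That check does not cover shifts shared by many genes of a library or by replicate number. Alternatives covered pseudocount, filter, scaling, samples in the fit, library weights, a replicate block and leaving out each library. Single values of some genes on the wider pathway lists are not reported here.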

Additional observations from a re-analysis of the deposited data

Results flagged for a closer look

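In 13 of the 117 sets of 4 libraries (39 genes in 3 groups), 1 library lay far from the other 3 relative to the range of the group; chance alone gives about 1 in 20. Of these, 10 came from replicate 4 of the myoglobin + dexamethasone group, each time as the highest library: Atf4 at 941 normalised reads (the others at 671 to 711), Atf5 at 770 (636 to 645), Phgdh at 438 (325 to 330), Mthfd2 at 507 (421 to 432), Got1 at 452 (348 to 357), Aars at 1529 (1253 to 1267), Gars at 987 (741 to 753), Iars at 1261 (1070 to 1078), Nars at 1386 (1083 to 1118) and Sars at 1010 (776 to 789). This is the library with the fewest estimated reads. The other 3 were Trib3 at 109 in replicate 2 of the myoglobin + dexamethasone group (132 to 133 in the others), Cth at 223 in myoglobin replicate 1 (246 to 249) and Lars at 783 in vehicle replicate 4 (706 to 713).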

How the results depend on the processing

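Of the 26 genes higher with myoglobin than with vehicle, 17 passed under each of 21 other settings; of the 26 higher with both agents than with vehicle, 22 did. Leaving out 1 library at a time gave 18 to 32 genes for the first count and 23 to 27 for the second. Between the groups with and without dexamethasone, 1 gene was higher and 0 lower; leaving out 1 library gave 0 to 1 higher and 0 to 2 lower. There, library totals and quantile normalization each gave 1 lower, library weights 3 lower, and the replicate block 2 higher (Cbs, Wars) and 2 lower (Shmt1, Mthfd1l), with 12.3% of all genes called against 6.98% without the block. With the replicate block, 31 genes were higher with myoglobin than with vehicle (11.2% of all genes against 8.71% without it) and 30 with both agents (17.7% against 13.9%). The labels do not say that a number marks a mouse, so libraries were not paired in the main fit, and the replicate block was an alternative. Same-numbered libraries correlated at r = -0.015 to 0.456. In 10 of the 12 same-numbered pairs over the 3 comparisons the best correlation was with the own number. That is a hint of pairing from the data, not from the design. Direction turned in 23 of the 117 log2 fold changes, with reversed values of at most 0.09 in size and never where either value passed; the cause was not tested. For myoglobin + dexamethasone over myoglobin, library totals gave Eif4ebp1 -0.03, Eif2ak4 -0.02, Cth -0.03, Gars -0.02, Iars -0.00, Lars -0.03, Tars -0.02 and Yars -0.02. Quantile normalization gave Ddit3 0.04, Vldlr -0.05, Aars -0.02, Gars -0.04, Iars -0.04, Lars -0.05, Tars -0.03 and Yars -0.01. Library weights gave Ddit3 0.07, Eif4ebp1 -0.07, Psat1 -0.00, Cth -0.03, Got1 -0.01, Aars -0.02, Gars -0.09, Iars -0.02, Lars -0.03, Nars -0.00, Tars -0.03 and Yars -0.05. Leaving out 1 library gave ranges of -0.10 to 0.09 for Ddit3, -0.02 to 0.07 for Ppp1r15a and Eif2ak4, -0.08 to 0.04 for Eif4ebp1, -0.01 to 0.12 for Psat1 and Sars, -0.05 to 0.03 for Cth, -0.02 to 0.10 for Got1, -0.08 to 0.00 for Slc38a2, -0.03 to 0.07 for Aars, -0.12 to 0.04 for Cars, -0.06 to 0.03 for Eprs, -0.09 to 0.04 for Gars, -0.03 to 0.05 for Iars, -0.03 to 0.02 for Lars and Tars, -0.01 to 0.11 for Nars and -0.05 to 0.05 for Yars. For both agents over vehicle, quantile normalization gave Psph 0.00 and Slc38a2 -0.00, library totals gave Shmt1 -0.01 and library weights gave it -0.02, and leaving out 1 library gave -0.05 to 0.02 for Psph, -0.01 to 0.07 for Shmt1 and -0.15 to 0.01 for Mthfd1l. Depth limits the low genes most: Trib3, Ddit3 and Pycr1 had vehicle means of 62.5, 73.8 and 81 normalised reads.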

Other observations

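The 39 genes shifted together between libraries of the same group. Replicate 1 was the lowest of the 4 libraries for 29 of the 39 genes (74.4%) with myoglobin, compared with 33.2% of all genes with a mean of at least 200 normalised reads. With vehicle, replicate 1 was the lowest for 21 (53.8%, against 28.5% of such genes) and replicate 4 the highest for 21 (53.8%, against 31.8%). With myoglobin and dexamethasone, replicate 1 was the lowest for 14 (35.9%, against 26.4%). Asns, Slc1a4 and Slc7a5 show it: in both the myoglobin and the vehicle group, replicate 1 had the lowest value of each gene. These are values of the libraries, and what the replicates share was not tested.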
